A study of Mus musculus with 6 samples.

Results

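Cytosolic ribosomal protein genes encode the protein subunits of the ribosome that works outside the mitochondrion. They were taken from the deposited comparison table by name: Rpl or Rps followed by a number and at most 1 of the letters a, l or x, together with Rplp0, Rplp1, Rplp2 and Rpsa, leaving out genes named as pseudogenes. The rule gave 83 genes of the 26071 in that table, 51 named Rpl and 32 named Rps. Of these, 76 encode structural proteins of the standard ribosome: 43 of the large (60S) subunit, 30 of the small (40S) subunit and 3 of the stalk that projects from the large subunit. Another 5 are tissue-restricted or inducible paralogs (Rpl3l, Rpl10l, Rpl39l, Rps4l and Rps27l), and the remaining 2, Rpl6l and Rpl32l, match the name only. GENCODE M21 annotates 80 of the 83 as protein-coding and lists Rps4l, Rpl6l and Rpl32l as processed pseudogenes. The pattern does not match Rps3a1, Fau and Rack1, which also belong to the ribosome, and these are described with the surrounding genes.

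The study compared 2 fractions of endothelial cells from the same 4T1 mammary tumours. Female Balb/c mice received 1000000 4T1 cells in the inguinal mammary fat pad at 8 weeks of age, and the tumours grew for 2 weeks, so that the mice were 10 weeks old. Each mouse was given 1E12 gold nanoparticles of 50 nm, coated with 5 kDa methoxy-polyethylene glycol and carrying the dye Cy5, through the tail vein, and tumours were taken 1 h later. Cells were depleted of CD45+ leukocytes, selected for CD31 and sorted into a nanoparticle-positive fraction (NP+) and a nanoparticle-negative fraction (NP-). All of this was shared by both groups: the labels tell them apart by the sort alone, and both fractions come from animals that received particles. There were 3 tumours (MET-106, MET-107, MET-108), each giving 1 NP+ and 1 NP- library, so n = 3 a group. Library totals ranged from 20856410 to 58089600 counts, with the MET-107 and MET-108 NP- libraries the smallest.

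Ribosomal protein mRNAs are among the most abundant and most evenly controlled messages of a cell. Their 5′ ends carry a terminal oligopyrimidine tract (the TOP motif), through which mTORC1 signalling and the protein LARP1 set how much of the pool is translated, so the abundance of these mRNAs and the rate at which they are translated can move separately. In endothelial cells, as in others, the demand for ribosomes rises with growth and division, and free ribosomal proteins of the 5S particle can bind Mdm2 and stabilise p53.

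The libraries carried endothelial RNA: Pecam1 (CD31, the selection marker) lay between 1931 and 3812 CPM (counts scaled to a library total of 1000000) and Cdh5 (VE-cadherin) between 311 and 650 CPM, while Ptprc (CD45) lay between 3.71 and 25.7 CPM. The MET-106 NP- library stood apart. Its summed fibroblast markers reached 4090 CPM against 188 and 71.5 CPM in the other NP- libraries and 15.7 to 53.1 CPM in NP+. Its epithelial and tumour markers reached 693 CPM against 47.7 and 24.4 CPM, and 8.46 to 12.6 CPM in NP+. Its pan-endothelial markers were the lowest, 10217 CPM against 13867 and 13237 CPM, and 14221 to 14961 CPM in NP+. Pericyte and smooth muscle markers summed to 178 to 956 CPM in NP- and 87.5 to 115 CPM in NP+. All markers of these lists were detected in at least 1 library. Mitochondrially encoded genes took 3.90% of the counts of the MET-106 NP- library and 1.01% to 1.498% in the others. Leukocyte markers summed to 43.6 to 56.7 CPM in NP+ and 81.5 to 223 CPM in NP-. The sums over marker lists use plain library totals, while the CPM of single genes carry TMM scaling of those totals. With that scaling all 16 pan-endothelial markers had a log2 fold change of NP+ over NP- above 0, with a median of 0.46. The median of genes of at least 5 CPM in 3 libraries was 0.25. The part of these differences in the values below was not tested. The main results for the members and the counts for the surrounding lists are given with and without the MET-106 NP- library. Leaving it out narrowed these marker differences but did not remove them. The fibroblast, epithelial and pericyte lists then had median log2 fold changes of -1.33, -2.36 and -1.71. With all 6 libraries these medians were -5.00, -4.30 and -2.66. In bulk samples, fewer cells of a type and less RNA per cell cannot be told apart.

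The 83 genes together took nearly the same share of the RNA in both fractions. In the order MET-106, MET-107, MET-108, which holds for all values by library below, the share of all gene counts was 2.40%, 2.83% and 2.63% in NP+ and 3.01%, 2.48% and 2.59% in NP-. The groups overlapped fully, with means of 2.62% ± 0.215 (SD, n = 3) and 2.70% ± 0.282 (SD, n = 3). Within tumours the NP+ share was 0.796, 1.14 and 1.01 times the NP- share, so tumour MET-106 went against the other two. Without the MET-106 NP- library the difference between the group means, NP+ minus NP-, turned from -0.077 to 0.082 percentage points. The balance of the subunits was the same throughout: 60S genes took 1.32 to 1.35 times the counts of 40S genes in all 6 libraries. Genes annotated as ribosomal protein pseudogenes, 279 in the count files, took 0.0362% to 0.0600% of counts. Ribosomal protein genes share sequence with many such copies, and how reads that map to several places were counted is not given in the sources used here, so the counts of single members are uncertain to that extent.

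**Figure D1:**
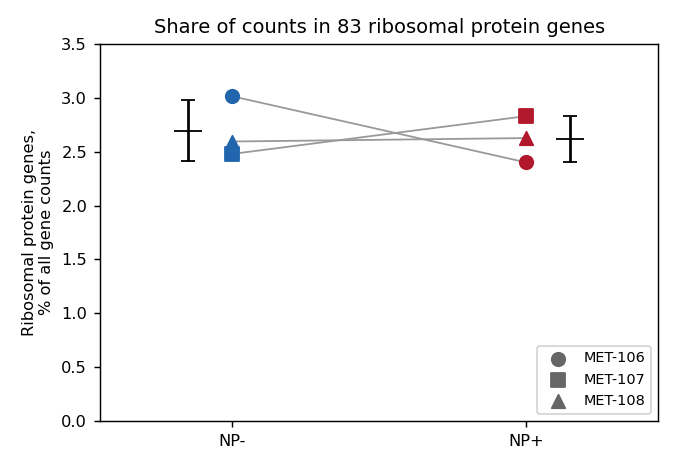
Share of all gene counts held by the 83 ribosomal protein genes (vertical axis, %) in the NP- and NP+ library of each tumour, with grey lines joining the fractions of a tumour and black bars giving the mean and SD of each group (n = 3). The line of tumour MET-106 falls from 3.01% to 2.40%, that of tumour MET-107 rises from 2.48% to 2.83%, and that of tumour MET-108 is nearly level.

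Gene by gene, no ribosomal protein gene passed the test. Differences are given as log2 fold changes of NP+ over NP- from edgeR's quasi-likelihood test with TMM scaling. Unless the block is named, the fit used the group alone and left out the pairing by tumour. A gene was called at a Benjamini-Hochberg adjusted p under 0.05 over all 23989 genes tested. Of the 83 members 82 passed the filter on low counts, the exception being Rpl10l, and 0 were called. At this threshold the test called few genes of any kind, 0.0125% of all genes as higher and 0.0167% as lower in NP+, and with the tumour as a block 0.00834% and 0.0542%. The block, DESeq2 and limma-voom also called 0 members, with lowest adjusted p of 0.21, 0.0615 and 0.227. At an unadjusted p under 0.05, 1 member was higher (Rpsa) and 1 lower (Rpl39l), against 8.01% and 15.4% of all genes. Among genes of at least 5 CPM in 3 libraries the shares were 17.8% and 4.38%. With the block 0 members were higher and 1 was lower, against 7.85% and 14.6% of all genes. In the authors' deposited table, which was made with DESeq2, 0 of the 83 had an adjusted p under 0.05, the lowest being 0.0931 for Rpl39l, while that table called 938 genes higher and 2390 lower in NP+.

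The 76 structural genes lay in a narrow band. Their median log2 fold change was 0.22, from -0.0039 (Rps27) to 0.45 (Rpsa), with 75 of 76 above 0. The band of all tested members had an interquartile range of 0.094, while genes of at least 5 CPM in 3 libraries (10671 genes) had a median of 0.25 and an interquartile range of 0.49, and all genes tested had a median of -0.29. The structural genes therefore sat near the middle of the expressed genes and moved less from gene to gene than these, which were not matched for level. Lists of related genes, described below, came closer. The interquartile range was 0.11 for other TOP mRNAs, 0.13 for elongation factors, 0.14 for other ribosomal genes and 0.16 for oxidative phosphorylation genes. It was 0.21 for mitochondrial ribosomal genes and 0.23 for initiation factors. Standard errors ran from 0.157 to 0.225, and the intervals of ± 2 SE of all 76 genes lay inside -1 to 1. These intervals are narrower than the test. In 7 of the 76 genes the lower bound lay above 0, while 1 had an unadjusted edgeR p under 0.05.

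The direction of this band depends on how libraries are scaled. TMM factors were 0.871 to 0.947 in NP+ and 1.07 to 1.16 in NP-. Scaled by total counts alone, the structural genes had a median log2 fold change of -0.069, with 17 of 76 above 0 and a range from -0.30 to 0.16. The genes of at least 5 CPM shifted with them, to -0.048, and the median of all genes tested shifted by -0.30. With upper-quartile scaling the medians of the structural genes and of the genes of at least 5 CPM were -0.015 and 0.0037. When only genes of at least 5 CPM entered the fit, they were -0.039 and -0.019. Under TMM, RLE, upper-quartile and total-count scaling the median of the structural genes minus that of the genes of at least 5 CPM lay between -0.033 and -0.019.

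**Figure D2:**
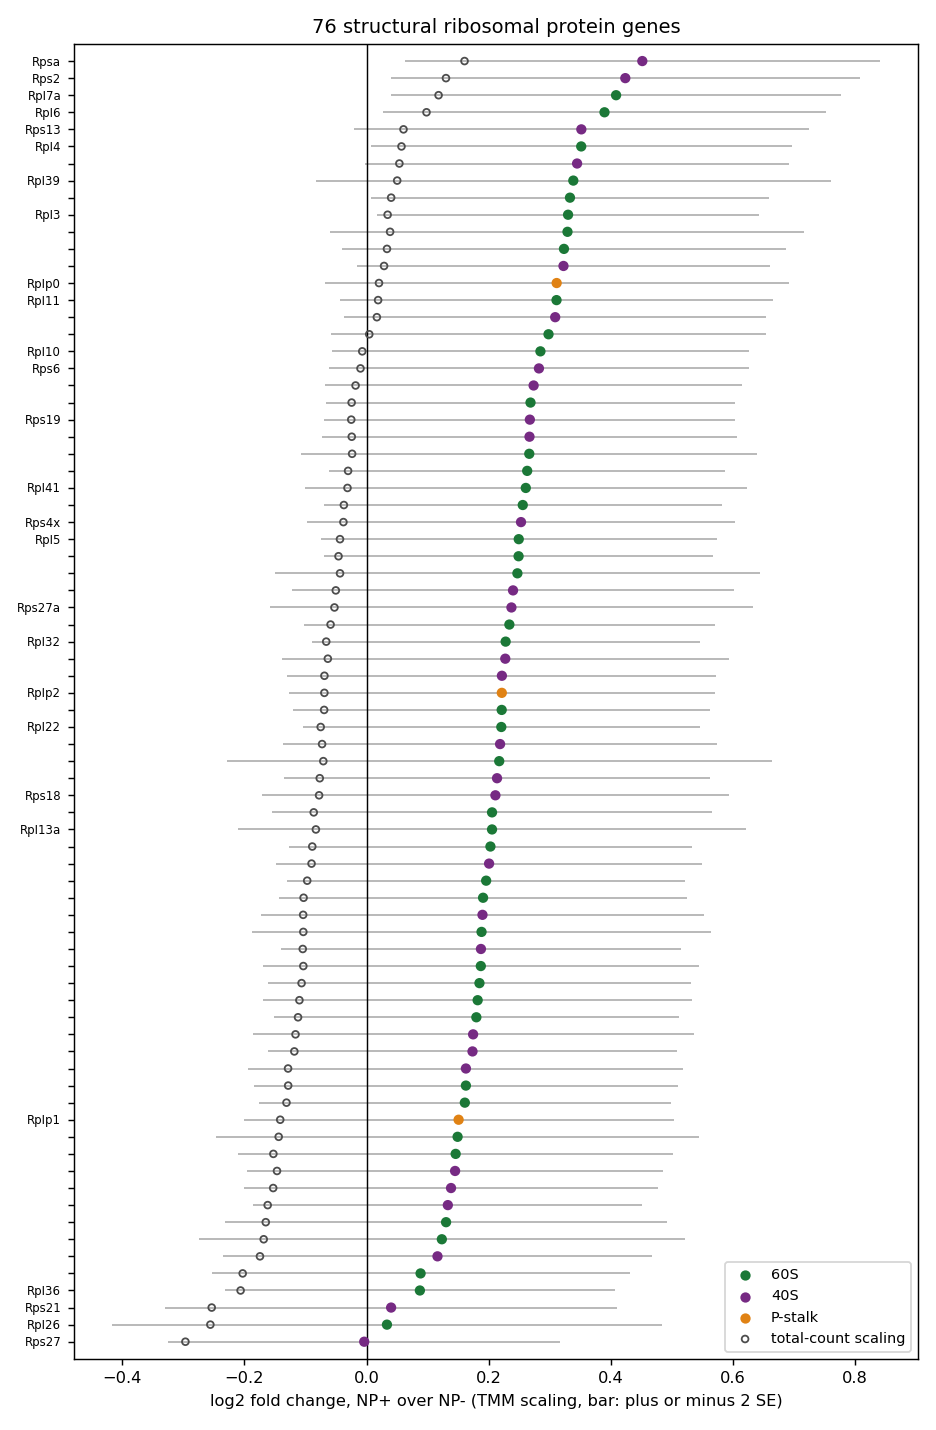
Log2 fold change, NP+ over NP- (horizontal axis), of each of the 76 structural genes, with filled points for TMM scaling (green 60S, purple 40S, orange stalk; most of the genes described in the text are named), grey bars for ± 2 SE, and open points for total-count scaling of the same gene. The filled points run from -0.0039 (Rps27) to 0.45 (Rpsa), and total-count scaling moves the whole column left, leaving 17 of 76 genes above 0.

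The tumours did not behave alike. With TMM scaling 19 of the 76 structural genes were higher in NP+ in tumour MET-106, 76 in tumour MET-107 and 75 in tumour MET-108, and the median log2 ratios within these tumours were -0.061, 0.46 and 0.30. With total-count scaling the numbers were 0, 69 and 40 and the medians -0.36, 0.17 and 0.011. By share of counts, 67 of the 76 genes had their highest value in the MET-106 NP- library, and 44 their lowest in the NP+ library of the same tumour. No such count was made for other genes, so these numbers do not tell whether the pattern is particular to the structural genes. The NP- library of this tumour stood apart in its fibroblast and epithelial markers. In its NP+ library those markers summed to 53.1 and 8.46 CPM. A link between the markers and these counts was not tested.

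**Figure D3:**
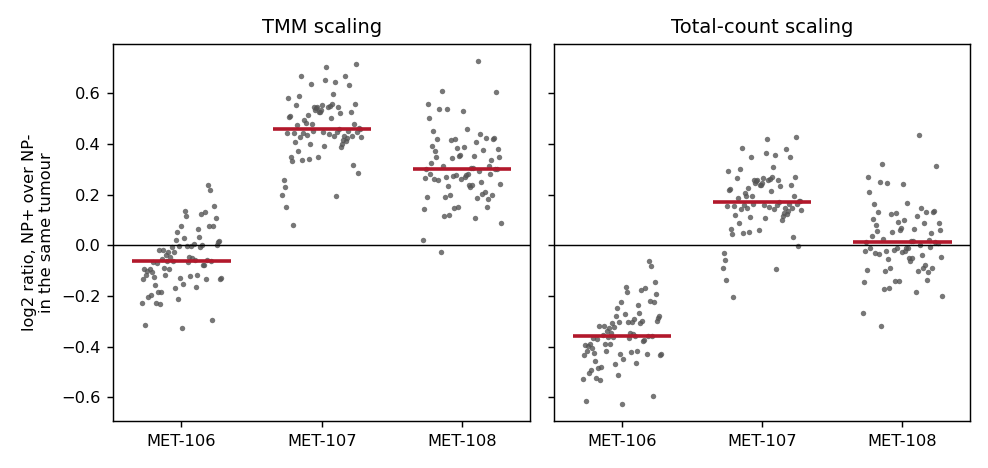
Log2 ratio of NP+ over NP- within each tumour (vertical axis) for the 76 structural genes, 1 point a gene, ordered within a tumour from short to long principal transcript, with TMM scaling on the left and total-count scaling on the right; red lines are medians. With TMM scaling the medians are -0.061, 0.46 and 0.30. Under either scaling the median of tumour MET-106 is the lowest, though points of the tumours overlap.

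Leaving out the MET-106 NP- library changed the calls. Of 27794 genes then tested, 3.48% were called higher and 4.86% lower in NP+. Among the members 2 were called higher, Rpsa (log2 fold change 0.70, edgeR adjusted p = 0.0434) and Rps2 (0.66, adjusted p = 0.0484), and 0 lower. Among genes of at least 5 CPM the share called higher was 8.85%, above that of the members. At an unadjusted p under 0.05, 45 of 83 members were higher and 2 lower, against 12.3% and 22.4% of all genes tested and, for the higher direction, 29.9% of genes of at least 5 CPM. The structural genes then had a median of 0.39 beside 0.33 for genes of at least 5 CPM. Without both libraries of tumour MET-106 their median was 0.57 beside 0.45, with 0 members called. At an unadjusted p under 0.05, 63 of 83 members were then higher, against 12.0% of all genes tested and 28.2% of genes of at least 5 CPM.

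**Figure D4:**
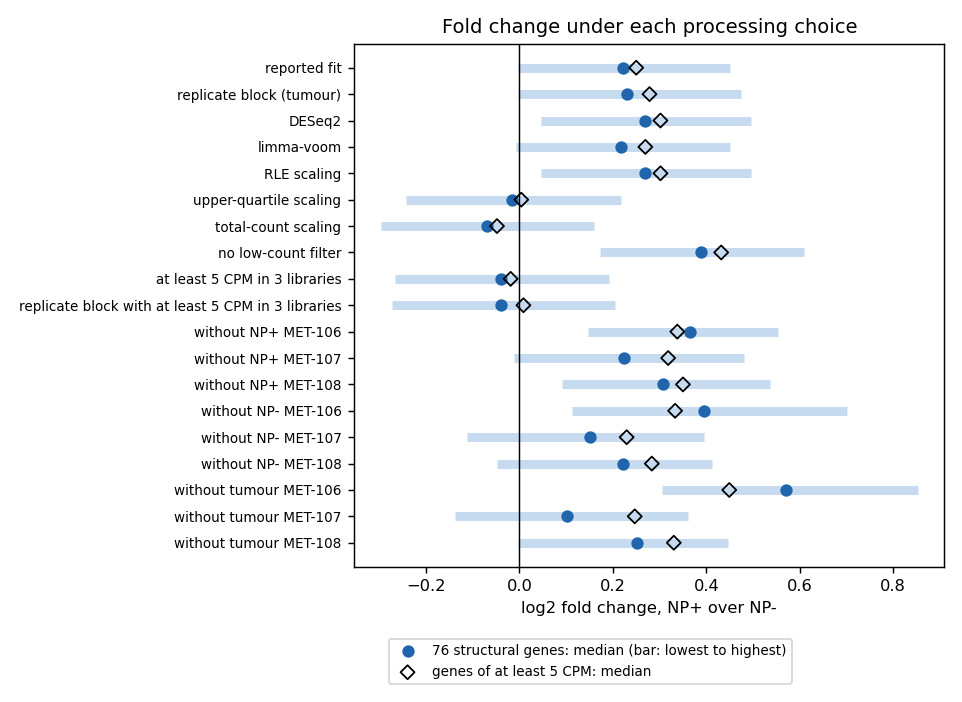
Log2 fold change, NP+ over NP- (horizontal axis), under each processing choice (rows): blue points are the median of the 76 structural genes, pale bars their lowest to highest value, and open diamonds the median of genes of at least 5 CPM. The points run from -0.069 with total-count scaling to 0.57 without tumour MET-106, where the diamonds stand at -0.048 and 0.45.

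Among the 40S genes, Rpsa had the largest difference. It encodes a 40S protein also described as a laminin receptor precursor, and it lies on chromosome 9 (120127689 to 120132369, GRCm38). Rpsa measured 940, 961 and 959 CPM in NP+ against 874, 586 and 631 CPM in NP-. With TMM scaling, which these CPM carry, all NP+ libraries lay above all NP- libraries. By share of all counts Rpsa took 0.0819%, 0.0909% and 0.0851% in NP+ and 0.0936%, 0.0676% and 0.0685% in NP-, so that the MET-106 NP- library was the highest and the groups overlapped. The log2 fold change was 0.45 (SE 0.19), a 1.37-fold difference, with an unadjusted p of 0.0464 and an edgeR adjusted p of 0.207. With the tumour as a block, the lowest unadjusted edgeR p among the 76 structural genes was 0.0557. Rps2, a 40S protein near the mRNA entry channel, measured 391, 418 and 409 CPM in NP+ against 374, 286 and 247 CPM in NP-, again without overlap (log2 fold change 0.42, SE 0.19, edgeR adjusted p = 0.224).

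At the other end of the 40S genes stood Rps27, which encodes a zinc-finger protein of the small subunit. It measured 353, 405 and 385 CPM in NP+ against 414, 353 and 379 CPM in NP-, and the groups overlapped fully (log2 fold change -0.0039, SE 0.16). Rps21 was close to it, at 86.0, 107.1 and 97.5 CPM in the NP+ fraction against 106.99, 96.5 and 79.1 CPM in the NP- fraction (log2 fold change 0.040). Rps6, the classic phosphorylation target of S6 kinase below mTORC1, measured 374, 394 and 414 CPM in NP+ against 355, 272 and 345 CPM in NP-. Its groups did not overlap, but the difference of 0.28 (SE 0.17) did not pass the test (edgeR adjusted p = 0.329). Rps13 differed by 0.35 and Rps19, the gene most often mutated in Diamond-Blackfan anaemia, by 0.27 on the log2 scale, neither past the test.

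Among the 60S genes the largest differences were those of Rpl7a, Rpl6 and Rpl4, all of them proteins bound to the 28S rRNA. Rpl7a measured 275, 287 and 271 CPM in NP+ against 254, 176 and 197 CPM in NP- (log2 fold change 0.41, SE 0.18, edgeR adjusted p = 0.221). Rpl6 and Rpl4 differed by 0.39 and 0.35. In each of these genes the groups did not overlap, and the MET-106 NP- library was the NP- library nearest to NP+. The smallest 60S difference was that of Rpl26, which lies near the exit of the peptide tunnel and is known to bind the Trp53 mRNA: 29.7, 30.7 and 30.5 CPM in NP+ against 34.9, 22.8 and 31.1 CPM in NP- (log2 fold change 0.033, SE 0.22). Rpl22, Rpl13a, Rpl32, Rpl36 and Rpl41 lay between these ends, at 0.22, 0.21, 0.23, 0.087 and 0.26.

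The stalk genes recruit the elongation factors. Rplp0, the stalk's anchor, measured 695, 689 and 729 CPM in NP+ against 659, 444 and 600 CPM in NP-, without overlap (log2 fold change 0.31, SE 0.19, edgeR adjusted p = 0.33). Rplp1 and Rplp2, which pair on that anchor, overlapped between the groups, with differences of 0.15 and 0.22. Rpl5 and Rpl11, which form the 5S particle and can bind Mdm2, differed by 0.25 and 0.31, and neither passed the test. Rpl11 measured 218, 221 and 215 CPM in NP+ against 210, 151 and 165 CPM in NP-. Rps27a, made as a fusion with ubiquitin, differed by 0.24. Genes mutated in Diamond-Blackfan anaemia (18 listed) had a median of 0.21, and genes often used as references in RNA assays (6 listed, among them Rplp0, Rpl13a, Rps18 and Rpl32) a median of 0.22, with 0 called in either list.

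In all, 19 of the 82 tested members had every NP+ library above every NP- library and 1, Rpl39l, had every NP+ library below, with TMM scaling. Over all genes tested these shares were 13.3% and 15.6%, and over genes of at least 5 CPM 27.8% and 5.23%. The 19 members are 23.2% of those tested, near the share of the genes of at least 5 CPM. This separation depends on the scaling. With total-count scaling 0 of the 82 lay wholly above, against 4.86% of all genes and 10.0% of genes of at least 5 CPM, and 3 lay wholly below (Rps27, Rpl36 and Rpl39l), against 22.8% and 12.8%. Each statement here that a member's groups do or do not overlap in CPM is for TMM scaling.

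**Figure D5:**
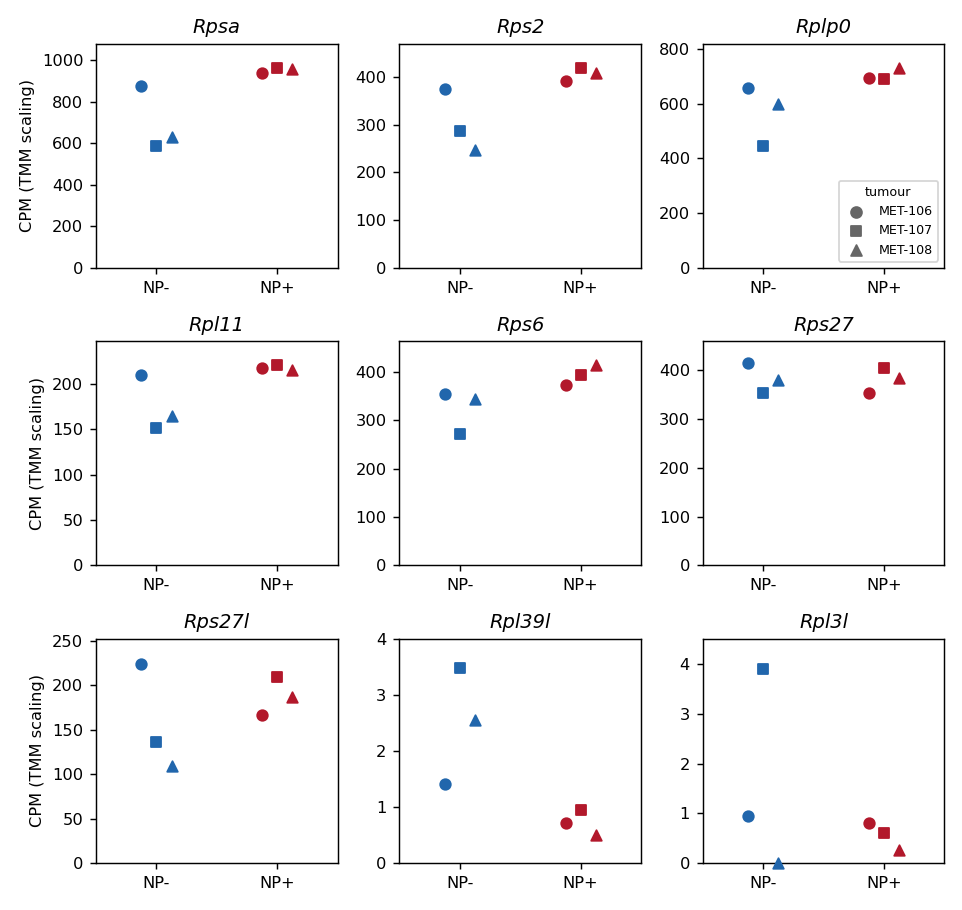
TMM-scaled CPM (vertical axes, each starting at 0) of 9 members in the 3 NP- (blue) and 3 NP+ (red) libraries, 1 symbol a tumour. For Rpsa, Rps2, Rplp0, Rpl11 and Rps6 the red points lie above all blue ones and the circle of tumour MET-106 is the highest blue point, for Rps27, Rps27l and Rpl3l the groups overlap, and for Rpl39l the red points lie below.

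Of the paralogs, Rpl39l, Rpl3l and Rpl10l were scarce, while Rps27l and Rps4l lay within the range of the structural genes. Rpl39l, the testis-enriched copy of Rpl39, had only 26, 52 and 20 counts in NP+ and 68, 84 and 76 in NP-, which is 0.714, 0.947 and 0.502 CPM against 1.42, 3.49 and 2.56 CPM. Its groups did not overlap, and its log2 fold change was -1.78 (SE 0.70), with an unadjusted p of 0.0327 and an edgeR adjusted p of 0.182. Olfactory receptor genes, which endothelial cells are not known to use, were also higher per length in NP-: 0.028, 0.0924 and 0.0502 CPM per kilobase, unscaled by TMM, in NP+ and 0.0908, 0.486 and 0.361 in NP-. On average over the NP- libraries Rpl39l stood 10.7 times above the level that its length would give at the olfactory rate, and the part of that background in its difference was not tested. Its parent Rpl39 differed by 0.34, overlapping between the groups.

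Rpl3l, the copy of Rpl3 known from heart and skeletal muscle, had 29, 33 and 10 counts in NP+ and 45, 94 and 0 in NP-, and its difference of -1.55 (SE 1.44) rested on the MET-107 NP- library, without which it was 0.21. Rpl10l, the testis copy of the X-linked Rpl10, had 0, 8 and 0 counts in NP+ and 3, 45 and 15 in NP-. Rps27l, a p53-inducible copy of Rps27, was the abundant paralog, with 166, 210 and 187 CPM in NP+ against 224, 136 and 110 CPM in NP-. Its difference was 0.26 (SE 0.27), and without the MET-106 NP- library it was 0.66 (edgeR adjusted p = 0.0614). Rps4l, related to the X-linked Rps4x, measured 58.0 to 69.2 CPM in NP+ and 40.1 to 68.2 CPM in NP-. The name-only matches Rpl6l and Rpl32l lay under 4 CPM in each library and overlapped between the groups (0.011 and 0.18).

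Levels between genes were compared per kilobase of exon. Rpl36 (641 CPM per kilobase), Rpl41 (571) and Rplp1 (558) were among the 5 highest members, and the lowest structural gene was Rpl26 (20.7), above Rpl32l (6.32), Rpl39l (1.93), Rpl6l (1.60) and Rpl3l (0.659). The exon lengths in the count files join all annotated exons of a gene, and 2 of the 5 highest, Rpl41 among them, kept that place when coding length from GENCODE M21 was used, where Rpl41 led with 4834 CPM per coding kilobase. With the length of the principal transcript 3 stayed. Ranks by exon and by coding length had a Spearman's rho of 0.63 over the 76 genes, and the order is no more certain than that.

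Within the pool of structural mRNAs the proportions held closely. Between any 2 libraries, log2 CPM per kilobase of exon over the 76 genes had a Pearson's r of 0.991 to 0.999. Over genes of at least 5 CPM it was 0.864 to 0.987, for log2 CPM not divided by length, so the ranges are not like with like. These are correlations across genes, which share libraries and are not replicates. The median coefficient of variation over the 6 libraries was 13.0% for the structural genes and 24.3% for genes of at least 5 CPM. It was 5.59% within NP+ and 14.6% within NP-, beside 11.9% and 25.9% for genes of at least 5 CPM. Lists of related genes came closer to the structural genes. Over the 6 libraries it was 15.6% for other ribosomal genes, 16.7% for oxidative phosphorylation and 17.9% for other TOP mRNAs. Initiation factors had 18.9% over the 6 libraries, with 4.82% within NP+ and 18.3% within NP-. Rpl28 was the steadiest part of the pool, at 0.663% to 0.694% of structural counts in all libraries, and Rps21 the least steady, at 0.315% to 0.453%. Rpsa took 3.44%, 3.24% and 3.27% of the pool in NP+ and 3.14%, 2.75% and 2.66% in NP-. Rps27 took 1.29%, 1.36% and 1.31% in NP+ and 1.49%, 1.65% and 1.60% in NP-. Such shares do not depend on library scaling. In 11 genes the NP+ share of the pool was higher in 3 of 3 tumours, among them Rpsa, Rps2, Rpl7a, Rpl6, Rps13, Rpl4 and Rpl11, and in 19 it was lower in 3 of 3, among them Rps27, Rpl26, Rps21, Rpl36 and Rpl37. No such count was made for other genes, and with 3 tumours some genes agree in direction by sign alone. Most of the genes named were picked by their log2 fold changes in the same counts, so their shares are not separate support. Over the 76 genes the log2 fold changes had a Spearman's rho of 0.55 with coding length, 0.30 with the length of the principal transcript and -0.003 with level per kilobase. Within tumours the log2 ratio had a rho with coding length of 0.66 in MET-106, 0.41 in MET-107 and 0.13 in MET-108. These are descriptions over genes of the same libraries.

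The genes were spread over 19 chromosomes, with 14 on chromosome 7 and 4 on the X chromosome (Rpl10, Rpl36a, Rpl39 and Rps4x), and of these Rpl10, Rpl39 and Rps4x differed by 0.28, 0.34 and 0.25 on the log2 scale.

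The start sites of the members at either end of the range, and of some in the middle, are shown because the TOP tract begins at the mRNA's first base. RefSeq (GRCm38.p6) gave windows for 61 of the 83 members. Each line gives 30 bases, 20 before the annotated start and 10 from it on, and capitals mark the longest run of at least 5 pyrimidines.
Rpsa: tggctgtgggttatttaaggacgtcatttc
Rps2: tgcgtaggcagtcgagatctcgcgCTTCTT
Rpl7a: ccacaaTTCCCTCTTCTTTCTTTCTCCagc
Rpl28: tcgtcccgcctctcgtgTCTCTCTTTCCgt
Rps6: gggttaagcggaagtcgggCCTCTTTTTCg
Rplp2: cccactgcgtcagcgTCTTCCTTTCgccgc
Rps21: gcacttaccgaggacccgCCCTCCTgccca
Rpl26: gagatctcgcggcaacttacagaaccggaa
Rps27: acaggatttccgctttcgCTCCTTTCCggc
Rpl39l: cctagctcccaggCCTTTCCggatttccgg
Rpl3l: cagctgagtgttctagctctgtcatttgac

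In Rps27 (chr3:90213639-90213668, minus strand), Rps6 (chr4:86857358-86857387, minus strand) and Rpl28 (chr7:4792945-4792974, plus strand) the run covers the annotated start. The run also covers it in Rpl7a, Rplp2 and Rps21, but not in Rps2 and Rpl39l. In Rpsa (chr9:120127746-120127775, plus strand), Rpl26 and Rpl3l no such run lies in the window. An annotated start can differ from the one used in these cells. Of the 56 structural genes with a window, 13 (23.2%) had a C at an annotated start followed by at least 4 pyrimidines, against 3.01% of all 27025 genes with a window. The median log2 fold change was 0.22 in those 13 genes and 0.25 in the others. Over the whole 300-base windows, searched on both strands, CCGGAAG (the ETS-type element) was found in 41.1% of structural genes and 9.93% of all genes, AAGATGGC (the YY1-type element) in 8.93% and 3.19%, GGGCGG in 60.7% and 38.2%, TATAAA in 10.7% and 15.7%, and CACGTG in 10.7% and 8.09%. These are matches of letters and do not show binding.

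The other genes of the pathway were taken from lists of translation, ribosome assembly, mTORC1, p53 and mitochondrial genes. Of the genes in these lists edgeR called 0 in either direction. DESeq2 called 14 of them higher and 1 lower, and over all 23989 genes tested it called 966 higher and 2365 lower. The counts given for these lists are at an unadjusted p under 0.05, which 8.01% of all genes tested reached as higher and 15.4% as lower; among genes of at least 5 CPM the shares were 17.8% and 4.38%. Among the ribosomal genes outside the name rule, Rps3a1, Fau and Rack1 differed by 0.24, 0.15 and 0.28, close to the structural genes, and 1 of 7, Rpl7l1, was higher at an unadjusted p under 0.05. Other TOP mRNAs, such as those of elongation factors and poly(A)-binding protein, had a median of 0.36, with 7 of 24 higher and 0 lower at an unadjusted p under 0.05. The snoRNA host genes, whose transcripts are also of the TOP type, had a median of 0.13, with 0 of 9 in either direction.

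Genes that build ribosomes had a median of 0.38, with 8 of 43 higher and 0 lower at an unadjusted p under 0.05. Bop1, a factor of 28S rRNA maturation, measured 113, 91.6 and 97.2 CPM in NP+ against 61.1, 47.7 and 54.0 CPM in NP- (log2 fold change 0.89, SE 0.18, edgeR adjusted p = 0.0992). Its groups did not overlap, and it was called without the MET-106 NP- library. Mybbp1a and Tsr1 differed by 0.76 and 0.82. For RNA polymerase I and 5S rRNA transcription, 3 of 21 were higher and 0 lower (Brf1, Ubtf and Gtf3c1), with a median of 0.30.

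Translation initiation factors had a median of 0.35, with 12 of 37 higher and 0 lower at an unadjusted p under 0.05. Eif2b5, the catalytic subunit of the eIF2B exchange factor, measured 57.5, 65.9 and 61.6 CPM in NP+ against 28.2, 9.36 and 21.3 CPM in NP- (log2 fold change 1.65, SE 0.36, edgeR adjusted p = 0.108). Eif3b differed by 1.83 and Eif2s3x by 0.64. Among elongation and termination factors 3 of 10 were higher and 0 lower, with a median of 0.38, namely Gspt1 (the termination factor eRF3, 1.36), Etf1 (0.60) and Eef1g (0.44). Of the mTORC1, TOP and Myc regulators 5 of 33 were higher and 1 was lower, with a median of 0.24; Rraga and Rptor differed by 0.60 and 0.83, and Rragd, at 0.125 to 5.53 CPM, by -2.70.

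In the p53 checkpoint list, with a median of 0.24, 2 of 16 were higher (Trp53, 0.45, and Bax, 0.43) and 1 was lower (Gdf15, -1.59) at an unadjusted p under 0.05. With the tumour as a block none of these 3 genes stayed under it (edgeR unadjusted p of 0.0526, 0.0684 and 0.0826), and 2 other genes of the list were higher. Ribosome rescue genes had 3 of 14 higher and 0 lower, with a median of 0.33, and Serbp1, Map3k20 and Ascc3 differed by 0.52, 0.68 and 0.54. Mitochondrial ribosomal protein genes, which encode the separate ribosome inside mitochondria, had a median of 0.25, with 9 of 78 higher and 0 lower. The smallest p-values among them were those of Mrps30 (log2 fold change 1.76), Mrps2 (0.64) and Mrps27 (0.77). Short nuclear genes of oxidative phosphorylation, which like the ribosomal protein genes are short and highly expressed, had a median of 0.19, with 0 of 32 in either direction. Without the MET-106 NP- library all these higher counts rose (edgeR, unadjusted p under 0.05). Oxidative phosphorylation had 19 of 32, mitochondrial ribosomal genes 35 of 78 and biogenesis 25 of 43. Other TOP mRNAs had 15 of 24, snoRNA hosts 3 of 9, initiation 19 of 37 and elongation 5 of 10. Regulators had 12 of 33, the p53 list 4 of 16 and rescue 6 of 14. RNA polymerase I had 7 of 21 and other ribosomal genes 3 of 7. All genes tested had 12.3% and genes of at least 5 CPM 29.9%. The direction of some list medians depends on the scaling. With total-count scaling the medians of the other ribosomal genes, the snoRNA hosts, the mTORC1 regulators, the p53 list, the mitochondrial ribosomal genes and the oxidative phosphorylation genes were -0.017, -0.16, -0.058, -0.057, -0.048 and -0.10. Those of the other TOP mRNAs, the biogenesis genes, RNA polymerase I, initiation, elongation and rescue were 0.069, 0.083, 0.0051, 0.046, 0.087 and 0.039, beside -0.048 for genes of at least 5 CPM.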

How the data were processed

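RNA-seq of 6 libraries, 3 NP+ and 3 NP-, was analysed from the counts per gene that the authors deposited. Per the submitters' processing notes, STAR 2.5.2b and featureCounts of Subread 1.5.2 were used with GRCm38. Per the labels' protocols, cDNA was made with SMART-Seq v4 and read as paired reads of 150 bp. No source used here gives the settings for strand or for reads that map to several places. The deposited comparison table holds normalized signal, log2 fold changes and p-values that the authors made with DESeq2. Its signal values times the size factor of their library gave whole reads for 100% of values (within 0.01 read) and equal the deposited counts, so the count test was run on the counts. Its fold changes were turned to NP+ over NP-.

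Genes passing edgeR's filterByExpr were tested with edgeR 4.0.16 (glmQLFit, glmQLFTest, TMM, group only) in R 4.3.3, with Benjamini-Hochberg adjustment over 23989 genes and a threshold of 0.05. The step was tested on simulated data. DESeq2 1.42.0, limma-voom (limma 3.58.1), other scalings and filters, a replicate block and left-out libraries were the alternatives. CPM are counts scaled to 1000000 per TMM-scaled library total. The sums over marker lists and the olfactory rates use plain library totals instead. Both fractions of a tumour share its number in the labels, so the numbers pair the samples; deviations of same-numbered libraries from their group means had correlations of 0.28, 0.21 and 0.021. The labels do not say whether the mice were separate experiments, and p-values measure the spread between these libraries.

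Named genes are the 6 members with the largest and the 6 with the smallest log2 fold change, the 5 highest and 5 lowest per kilobase, members fixed for their roles, and up to 3 genes with the smallest p in each surrounding list; some genes that this rule picks are not reported here. The members and lists were chosen with earlier results of these data known.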

Additional observations from a re-analysis of the deposited data

How the results depend on the processing

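With 3 libraries a group and the MET-106 NP- library standing apart, the test called few genes, and depth was not even between the groups. The call of 0 members held in each alternative with all 6 libraries. Over left-out libraries and tumours it ran from 0 to 2 higher, and the 2 came without the MET-106 NP- library. The replicate block by tumour moved the genes called higher from 3 to 2, the genes called lower from 4 to 13 and the members higher at an unadjusted p under 0.05 from 1 to 0. At that p it moved the higher counts of the other TOP mRNAs from 7 to 5, of biogenesis from 8 to 7, of initiation from 12 to 11, of elongation from 3 to 2, of the regulators from 5 to 4 and of the mitochondrial ribosomal genes from 9 to 6, and the lower count of the p53 list from 1 to 0. Members whose NP+ libraries all lay above NP- numbered 19, and 0 with total-count scaling, and those all below 1 and 3.

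Genes called higher in NP+ numbered 3, and 966 with DESeq2, 12 with limma-voom, 525 without a filter, 18 with at least 5 CPM in 3 libraries and 44 with that filter and the block. Over left-out libraries they ran from 0 to 968. Genes called lower numbered 4, and 2365, 18, 9, 686, 87 and 183 with DESeq2, upper-quartile scaling, total counts, no filter, at least 5 CPM, and the block with at least 5 CPM, and from 0 to 1352 over left-out libraries. Members higher at an unadjusted p under 0.05 numbered 9 with limma-voom, 2 without a filter, 0 with DESeq2, RLE, upper-quartile and total-count scaling and with either 5 CPM fit, and 0 to 63 over left-out libraries. Members lower numbered 0 with either 5 CPM fit and 0 to 2 over left-out libraries. In both directions together, 10 of 82 members lay under that p with limma-voom, against 16.7% of all genes tested. Without a filter 3 of 83 did, against 18.7% of all genes tested. Surrounding list genes called higher were 14 with DESeq2, 6 without a filter and 0 to 27 over left-out libraries, and 1 was lower with DESeq2. The causes were not tested.

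The median of all members turned to -0.017 with upper-quartile scaling, -0.072 with total counts, -0.039 with at least 5 CPM and -0.040 with that filter and the block, and ran from 0.10 to 0.57 over left-out libraries. The difference in summed share ran from -0.19 to 0.082 percentage points.

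With total counts these log2 fold changes turned: Rpl10 -0.0071, Rpl13a -0.083, Rpl22 -0.075, Rpl26 -0.26, Rpl32 -0.066, Rpl32l -0.11, Rpl36 -0.21, Rpl41 -0.031, Rpl5 -0.044, Rpl6l -0.30, Rplp1 -0.14, Rplp2 -0.069, Rps18 -0.078, Rps19 -0.025, Rps21 -0.25, Rps27a -0.053, Rps27l -0.026, Rps4l -0.098, Rps4x -0.038, Rps6 -0.0100, Rack1 -0.012, Snhg12 -0.043 and Snhg5 -0.012. With upper-quartile scaling Rpl13a was -0.035, Rpl22 -0.017, Rpl26 -0.21, Rpl32 -0.013, Rpl32l -0.030, Rpl36 -0.15, Rpl6l -0.21, Rplp1 -0.083, Rplp2 -0.015, Rps18 -0.022, Rps21 -0.19 and Rps4l -0.060. With at least 5 CPM Rpl13a was -0.054, Rpl22 -0.045, Rpl26 -0.23, Rpl32 -0.037, Rpl36 -0.18, Rpl41 -0.00081, Rpl5 -0.014, Rplp1 -0.11, Rplp2 -0.039, Rps18 -0.047, Rps21 -0.22, Rps27a -0.022, Rps4l -0.070, Rps4x -0.0085 and Snhg12 -0.012. With that filter and the replicate block Rpl13a was -0.040, Rpl22 -0.044, Rpl26 -0.21, Rpl32 -0.040, Rpl36 -0.18, Rpl5 -0.020, Rplp1 -0.11, Rplp2 -0.042, Rps18 -0.045, Rps21 -0.22, Rps27a -0.0090, Rps4l -0.044 and Rps4x -0.0057. Rpl3l was 0.33 with limma-voom, and Rps27 was 0.047 with DESeq2 and with RLE and 0.17 without a filter. Over left-out libraries Rpl26 ran from -0.14 to 0.38, Rpl32l from -0.11 to 0.68, Rpl3l from -2.10 to 0.21, Rpl6l from -0.35 to 0.63, Rps21 from -0.048 to 0.42, Rps27 from -0.11 to 0.30 and Snhg12 from -0.0033 to 0.77. None of these genes was called with all 6 libraries. The order per kilobase was also computed with 2 other lengths, chosen after seeing the data, as were the alternatives for the surrounding lists, for the overlap of the groups and for the relation to length.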
